A study of Mus musculus with 24 samples.

Results

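A set of 8 regulators of the primitive streak and the anterior endoderm were followed in mouse cells driven towards extraembryonic endoderm with or without AGO2, an Argonaute protein that binds small RNAs and silences their targets. They were chosen by name as T, Eomes, Mixl1, Gsc, Mesp1, Lhx1, Hhex and Cer1, which are 8 of the 30590 gene symbols in the day 1 to 4 count files. All 8 were also among the 43629 identifiers of the endpoint files. The cells were E14 mouse embryonic stem cells (mESCs) of 129/Ola background, either AGO2 knockout (KO) or wild type (WT). For differentiation, both genotypes were cultured in medium with 15% serum, 0.1 µM all-trans retinoic acid and 10 ng/mL Activin A, a ligand that signals like Nodal, under a protocol of 5 days. Polyadenylated RNA was sequenced on days 1, 2, 3 and 4, with 2 KO and 2 WT libraries per day. The endpoint was called diff_XEN and comprised 2 KO libraries, named for clones C4 and 5-3, and 2 WT libraries, named A and B. Undifferentiated WT mESCs at passages 33 and 42 gave 2 further libraries. The clone behind the KO libraries of days 1 to 4 was not stated. By the labels, the endpoint and mESC data came from earlier work, and no level is compared between them and days 1 to 4.

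In the gastrulating mouse embryo, the primitive streak forms under Nodal and canonical WNT signals and gives rise to mesoderm and definitive endoderm. T (brachyury) and Eomes are T-box transcription factors of the streak, and Mixl1 and Gsc are homeobox factors of the streak, Gsc marking its anterior end. Mesp1 is a basic helix-loop-helix factor of the earliest mesoderm. Lhx1, a LIM homeobox factor, Hhex, another homeobox factor, and Cer1, a secreted antagonist of Nodal, BMP and WNT ligands, are expressed in the anterior visceral endoderm, an extraembryonic tissue that patterns the embryo's front, and in anterior definitive endoderm. Eomes acts in the visceral endoderm as well as in the streak, so these genes do not mark embryonic tissue alone. On GRCm38, T lies at chr17:8434423-8442496, Eomes at chr9:118478212-118486132 and Hhex at chr19:37434810-37440731, all on the plus strand. On the minus strand lie Mixl1 at chr1:180693043-180697034, Gsc at chr12:104471209-104473330, Mesp1 at chr7:79792241-79793788, Lhx1 at chr11:84518284-84525535 and Cer1 at chr4:82881751-82885148.

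Of the genes described below, Lhx1, Hhex and Gsc were called lower in KO than in WT cells on day 4, and their promoters are shown for that shared call, which Gsc loses in several alternatives given below. Each run covers 250 bases before to 50 bases after the gene's start, from RefSeq on build GRCm38.p6, and is written 5′ to 3′ on the gene's strand. Capitals mark a match to any of 9 short motifs searched on both strands. The motifs were CTTTGAT and CTTTGAA of TCF/LEF factors, TCACAC of T-box factors, TGTNNATT of FOXH1, TAATCC and TAATTA of homeobox factors, AGATAA of GATA factors, TGTTTAC of forkhead factors and the TATA box TATAAA. The TCF/LEF forms differ in their last base, the first homeobox motif shares its opening letters with the second, and no matches of different motifs overlapped in the windows of these genes.
Lhx1, chr11:84525485-84525784, minus strand: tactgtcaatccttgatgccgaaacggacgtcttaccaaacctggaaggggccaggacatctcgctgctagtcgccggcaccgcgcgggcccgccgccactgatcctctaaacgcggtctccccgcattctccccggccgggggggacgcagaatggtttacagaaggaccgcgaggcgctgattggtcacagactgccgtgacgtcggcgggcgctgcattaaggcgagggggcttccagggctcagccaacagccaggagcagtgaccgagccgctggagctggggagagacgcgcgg
Hhex, chr19:37434591-37434890, plus strand: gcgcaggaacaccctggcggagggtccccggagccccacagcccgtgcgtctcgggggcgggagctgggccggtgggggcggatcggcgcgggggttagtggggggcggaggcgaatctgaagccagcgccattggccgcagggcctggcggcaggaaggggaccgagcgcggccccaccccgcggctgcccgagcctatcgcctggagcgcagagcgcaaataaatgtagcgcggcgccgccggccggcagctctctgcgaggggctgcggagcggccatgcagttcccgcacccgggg
Gsc, chr12:104473187-104473486, minus strand: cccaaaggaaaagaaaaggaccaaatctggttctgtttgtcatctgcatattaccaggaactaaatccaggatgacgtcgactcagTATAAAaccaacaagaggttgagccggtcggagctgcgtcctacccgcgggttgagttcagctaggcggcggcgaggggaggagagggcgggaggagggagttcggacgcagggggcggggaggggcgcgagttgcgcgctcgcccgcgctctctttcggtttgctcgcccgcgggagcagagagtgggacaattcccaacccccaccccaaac
The Lhx1 and Hhex windows held none of the 9 motifs. The Gsc window held 1, TATAAA, whose first base lay at -164 relative to the start, and which 13.6% of all 32851 promoters of that length contained. G and C made up 65.7% of the Lhx1 window, 75.7% of the Hhex window and 60.3% of the Gsc window. RefSeq windows were matched for 7 of the 8 genes, all but Mixl1. Among the others, the T window held 1 match to a TCF/LEF motif and the Mesp1 window 2, against 3.73% of all promoters with CTTTGAT and 5.14% with CTTTGAA. The Mesp1 window also held TCACAC, found in 14.5% of all promoters, and the Cer1 window TAATTA, found in 5.29%. The Eomes window held no match. These are matches of letters, and no binding was measured.

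Because AGO2 carries microRNAs, the family most typical of mESCs was also set beside the genes. A pair of its members, each with its seed (bases 2 to 8) in capitals, are given with the single matches found in the 8 genes' longest annotated 3′ untranslated regions, where capitals mark the match AGCACTT.
mmu-miR-294-3p: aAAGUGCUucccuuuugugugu
mmu-miR-302b-3p: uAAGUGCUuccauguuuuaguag
Hhex, GRCm38, chr19:37440324-37440346, plus strand: catttcagAGCACTTggctcccg
Mixl1, GRCm38, chr1:180693404-180693426, minus strand: tttttcttAGCACTTgttattat
Both microRNAs shared the seed AAGUGCU with 3 others in the RefSeq table. The match stood in 2 of the 8 regions and in 14.9% of 20644 genes with an annotated region. Both printed matches are of letters only, and no microRNA was measured here.

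Ago2 itself was called lower in KO libraries on every day, with log2 fold changes of -3.27, -1.75, -1.31 and -2.09 on days 1 to 4 (adjusted p 3.18e-04 to 0.0219, edgeR). It reached 33.8 to 148 CPM (reads scaled to TMM-adjusted library size) in KO libraries of days 1 to 4 and 186 to 581 CPM in WT libraries, and the groups did not overlap on any day. In diff_XEN it had 115 CPM in clone C4 and 9.35 CPM in clone 5-3, against 389 and 427 CPM in WT libraries A and B. That endpoint difference was not called (adjusted p = 0.0808 by edgeR's quasi-likelihood test), and reads remained in every KO library. Total counts were 10601574 to 27147835 per library on days 1 to 4 and 13941826 to 40139219 at the endpoints. Replicates differed unevenly. WT replicate 1 was above replicate 2 on days 3 and 4 for Eomes, Gsc, Lhx1, Hhex and Cer1, and WT diff_XEN library A was above library B for the same genes, so values without those libraries are given where they change a call. Apart from the KO diff_XEN clones and the mESC passages, the labels do not tell separate cultures from repeat libraries. The spread behind each p-value may therefore be technical, in part at the endpoints and wholly on days 1 to 4.

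The T-box gene T stayed near the limit of detection. On days 1, 2, 3 and 4 it had 0.773 and 1.11, 1.58 and 1.32, 1.54 and 0.291, and 0.0751 and 0.557 CPM in KO libraries. In WT libraries it had 1.04 and 0.757, 0.706 and 0.648, 0.831 and 0.137, and 0.269 and 0.573 CPM on the same days. Both KO libraries lay above both WT libraries on day 2, and the groups overlapped on the other days. The log2 fold change of KO over WT was 1.09 ± 0.65 (SE) on day 2 and was not called (adjusted p = 0.491, edgeR). T was called in none of the 13 comparisons of the course, and no library held more than 41 reads of it. It was called in 1 alternative, lower on day 4 than on day 1 in KO cells when KO replicate 2 of day 4 was left out (-3.53, adjusted p = 0.0385). In diff_XEN it had 0 and 0 reads in KO libraries, and 1 and 0 reads in WT libraries, against 5 and 6 in WT mESCs, and it was too low to be tested there.

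Eomes was the most abundant of the 8 genes per kilobase of exon on every day in both genotypes. The test of whether its course over the 4 days differed between them was not called (adjusted p = 0.129, edgeR). KO libraries had 11.9 and 9.21 CPM on day 1, 22.6 and 27.4 CPM on day 2, 39.8 and 33.1 CPM on day 3, and 17.3 and 17.6 CPM on day 4. WT libraries had 11.3 and 11.7, 26.8 and 17.7, 31.9 and 10.6, and 54.7 and 31.9 CPM on the same days. Both KO libraries lay above both WT libraries on day 3 and below both on day 4, and the WT libraries of days 3 and 4 overlapped. Relative to day 1, Eomes rose in KO cells on day 2 (log2 fold change 1.24 ± 0.40, adjusted p = 0.0232) and on day 3 (1.79 ± 0.40, adjusted p = 0.00207), and was not called on day 4 (0.72 ± 0.40, adjusted p = 0.128). In WT cells it rose by day 4 (1.91 ± 0.40, adjusted p = 0.00169) and was not called on days 2 and 3 (adjusted p = 0.107 and 0.104). The KO call of day 2 was lost without KO replicate 1 or 2 of day 1 or replicate 2 of day 2 (adjusted p = 0.0541, 0.151 and 0.119). In WT cells the day 3 rise was called without WT replicate 2 of that day (1.47, adjusted p = 0.00225). All of these are edgeR's quasi-likelihood tests.

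The genotypes themselves were not called different in Eomes during the course. On day 4 the log2 fold change was -1.31 ± 0.40 (adjusted p = 0.0685, edgeR), and on day 3 it was 0.80 ± 0.39 (adjusted p = 0.275). The day 4 value passed the threshold with DESeq2 (adjusted p = 0.0141), in the fit of that day's 4 libraries alone (0.0445) and without the expression filter (1.05e-06). Without WT replicate 1 of day 3, the day 3 difference was 1.79 and was called higher in KO (adjusted p = 0.00417). An unnamed predicted transcript lies antisense to Eomes with 1 overlapping exon pair, and because the strand setting of the counting was not given, reads of the pair cannot be told apart.

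Mixl1 remained between 0.751 and 2.29 CPM in every library of the course. KO libraries had 1.24 and 1.66, 2.29 and 2.04, 1.24 and 1.26, and 1.35 and 0.990 CPM on days 1, 2, 3 and 4. WT libraries had 1.32 and 1.18, 1.14 and 1.02, 1.02 and 0.751, and 1.44 and 1.43 CPM. The KO libraries lay above the WT libraries on days 2 and 3 and below them on day 4. On day 2 the log2 fold change was 1.00 ± 0.31, with an adjusted p of 0.133 in edgeR, so no difference was called.

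Gsc parted between the genotypes late. KO libraries had 0.580 and 1.06 CPM on day 1, 0.499 and 0.882 CPM on day 2, 0.601 and 0.194 CPM on day 3, and 0.300 and 0.433 CPM on day 4. WT libraries had 0.320 and 0.505, 0.923 and 0.833, 1.11 and 0.410, and 3.32 and 0.930 CPM on the same days. The KO libraries were above WT on day 1 and below WT on day 4. Gsc was called lower in KO cells on day 4 (log2 fold change -2.46 ± 0.70, adjusted p = 0.0486, edgeR) and higher in WT cells on day 4 than on day 1 (2.32 ± 0.64, adjusted p = 0.00805). Both calls rest on few reads, 4 and 7 in KO and 37 and 13 in WT libraries of day 4. Without WT replicate 1 of day 4, the genotype difference was -1.31 (adjusted p = 0.425) and the WT change was 1.17 (adjusted p = 0.223), and neither was called. The WT change was lost without WT replicate 1 of day 1 as well (2.03, adjusted p = 0.0705). The genotype call was also lost without either KO library of day 4 (adjusted p = 0.268 and 0.138) and in the fit of day 4 alone (0.119).

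Mesp1 was nearly absent, with 22 reads over all 16 libraries of the course. It had 1 and 6, 5 and 0, 2 and 0, and 0 and 0 reads in KO libraries on days 1 to 4, against 1 and 3, 0 and 2, 1 and 0, and 0 and 1 reads in WT libraries. At the depth of the KO libraries of day 4, a count of 0 allows up to 0.225 and 0.186 CPM (3 reads each, counting error only). Mesp1 was not tested, and differences were not detectable at this depth.

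**Figure D1:**
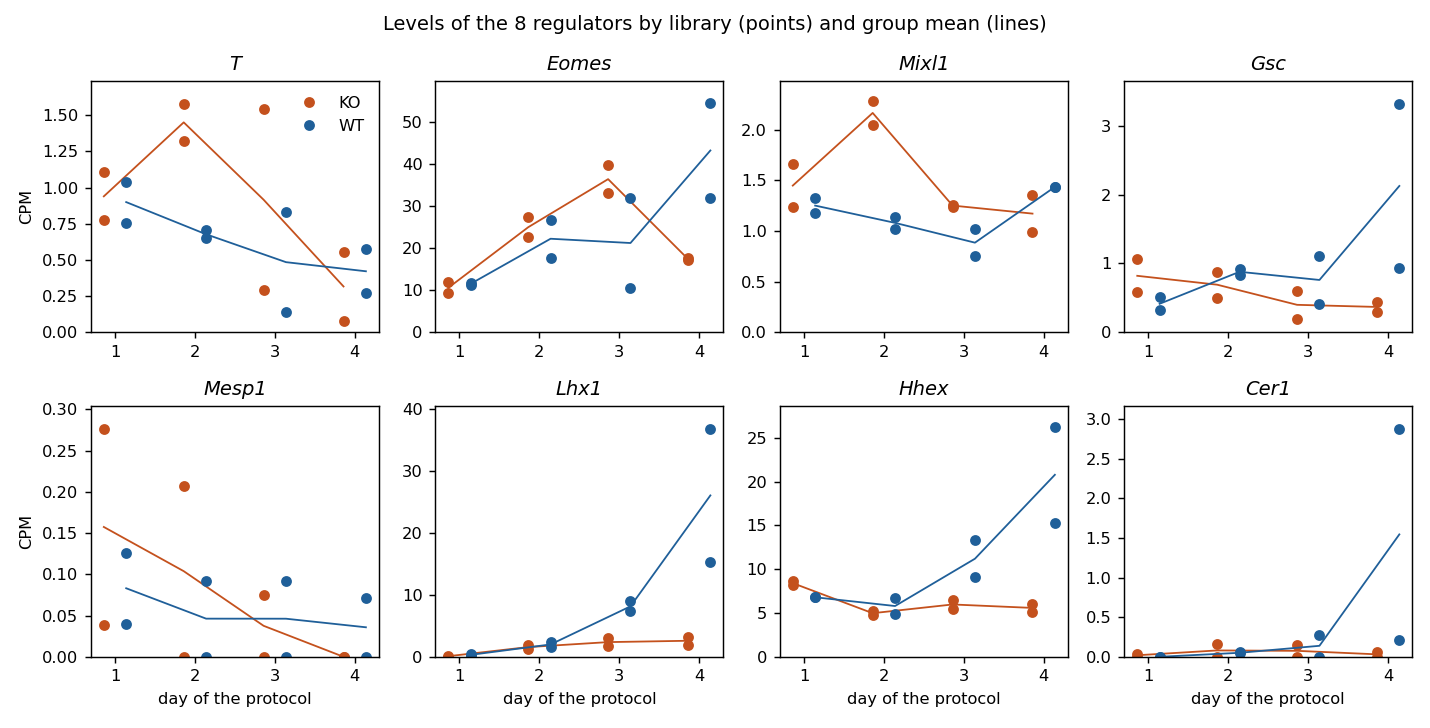
CPM of the 8 genes on days 1 to 4 (x axis, day; y axis, CPM, a separate linear scale per gene), with KO libraries in orange to the left of WT libraries in blue, 1 point per library and a line through the means of the 2 libraries. Lhx1 and Hhex climbed in WT cells to 15.3 CPM or more on day 4 and stayed at 6.08 CPM or less in KO cells on that day.

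Of the 6 genes tested, Lhx1 showed the largest change between day 1 and day 4 of the WT course. KO libraries had 0.193 and 0 CPM on day 1, 1.29 and 1.84 CPM on day 2, 1.73 and 3.005 CPM on day 3, and 1.95 and 3.22 CPM on day 4. WT libraries had 0.160 and 0.463 CPM on day 1, 1.57 and 2.41 CPM on day 2, 8.96 and 7.31 CPM on day 3, and 36.7 and 15.3 CPM on day 4. The genotypes overlapped on days 1 and 2, and every KO library lay below every WT library on days 3 and 4. In KO cells, Lhx1 rose relative to day 1 by a log2 fold change of 3.83 ± 0.80 on day 2 (adjusted p = 0.00214, edgeR) and 4.36 ± 0.80 on day 3 (4.13e-04), and was at 4.56 ± 0.79 on day 4 (1.75e-04). In WT cells it rose by 2.67 ± 0.66 on day 2 (adjusted p = 0.0112), 4.69 ± 0.63 on day 3 (7.38e-05) and 6.36 ± 0.64 on day 4 (4e-06). The WT call of day 2 was lost without WT replicate 1 of day 1 (2.10, adjusted p = 0.118) or replicate 2 of day 2 (2.33, adjusted p = 0.102). From day 3 to day 4 the change was 0.20 ± 0.55 in KO cells and 1.68 ± 0.48 in WT cells, and neither was called (adjusted p = 0.874 and 0.0908), although the WT step passed with DESeq2 (0.0131).

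Against WT, Lhx1 was lower in KO cells on day 4, with a log2 fold change of -3.31 ± 0.52 (adjusted p = 0.00113, edgeR). This call held in every alternative run here, including each left-out library. On day 3 the difference was -1.84 ± 0.52 and was not called (adjusted p = 0.0599), but it was with DESeq2 (0.00558). On days 1 and 2 it was -1.51 ± 1.01 and -0.35 ± 0.54, with adjusted p of 0.312 and 0.840.

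Hhex fell early in KO cells and rose late in WT cells. KO libraries had 8.66 and 8.15 CPM on day 1, 4.78 and 5.17 CPM on day 2, 5.45 and 6.49 CPM on day 3, and 6.08 and 5.07 CPM on day 4. WT libraries had 6.77 and 6.81 CPM on day 1, 4.83 and 6.75 CPM on day 2, 13.3 and 9.08 CPM on day 3, and 26.2 and 15.3 CPM on day 4. Both KO libraries were above WT on day 1, and both were below WT on days 3 and 4. Both WT libraries of day 2 also lay below those of day 1, which was not called (log2 fold change -0.23 ± 0.28, adjusted p = 0.609, edgeR). In KO cells the day 2 level was below day 1 (log2 fold change -0.76 ± 0.28, adjusted p = 0.0403, edgeR), a call lost without any one of the 4 libraries involved (adjusted p 0.0983 to 0.152), and days 3 and 4 were not called against day 1 (0.138 and 0.0778). In WT cells it rose by day 4 (1.61 ± 0.28, adjusted p = 3.03e-04) and was not called on day 3 (0.71 ± 0.28, adjusted p = 0.0558), except without WT replicate 2 of that day (0.97, adjusted p = 0.0273).

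On day 4, Hhex was lower in KO than in WT cells, with a log2 fold change of -1.89 ± 0.29 (adjusted p = 8.01e-04, edgeR), which held in every alternative run here. On day 3 it was -0.91 ± 0.29 (adjusted p = 0.0860), called with DESeq2 (0.0403). In edgeR's main fit, Hhex alone of the 6 regulators tested had a course over the 4 days that was called different between genotypes. This interaction call had F = 11.5 and an adjusted p of 0.0298 (edgeR), where 2.32% of all genes passed. That call was lost in 8 of the 16 fits that left out a library. Adjusted p for the interaction in the same edgeR fit was 0.111 for Lhx1, 0.129 for Eomes and 0.149 for Gsc. DESeq2's interaction test was not read out for the regulators. Over all genes it called 2179, against 410 in the main edgeR fit. Eomes passed without WT replicate 1 of day 3 (adjusted p = 0.00439), and Lhx1 without KO replicate 1 of day 1 (0.0493).

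Cer1 appeared in WT cells on day 4. KO libraries of days 1 to 4 held 1 and 0, 0 and 4, 4 and 0, and 0 and 1 reads, and WT libraries held 0 and 0, 1 and 1, 3 and 0, and 32 and 3 reads. Nearly all WT reads of day 4 were thus in replicate 1, at 2.87 CPM against 0.215 CPM in replicate 2. Cer1 did not pass the expression filter and has no main test. Summed over the day, 1 read in KO against 35 in WT libraries corresponds to a level 41.1-fold lower in KO cells, with an exact 95% interval of 6.91 to 1.67e+03-fold that covers counting error only and not the spread between replicates. With 35 reads on day 4 against 0 on day 1, WT cells were at least 22.6-fold higher on day 4, taking 3 reads over the group as the floor. Both values rest on WT replicate 1 of day 4. Replicate 2 alone had 3 reads, which is at that floor, so no fold is given without replicate 1. Without the expression filter, edgeR called Cer1 lower in KO on day 4 (adjusted p = 1.51e-04), and DESeq2 gave no adjusted p.

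Counted together on day 4, 3 of the 8 genes (Gsc, Lhx1 and Hhex) were called lower in KO cells, none higher, 3 were not called (T, Eomes and Mixl1) and 2 were not tested (Mesp1 and Cer1). Of all 17694 genes tested, 7.04% were called on day 4. Those called lower in KO made up 5.05% and those called higher 1.99% of the genes tested. The count of 3 is 2 when WT replicate 1 or either KO replicate of day 4 is left out, each time through Gsc. On days 1, 2 and 3 none of the 6 regulators tested was called in edgeR's main fit, where 13.6%, 1.63% and 4.83% of all genes were. At an unadjusted p below 0.05, edgeR gave 0 of 6 on day 1, 1 on day 2 (Mixl1, higher) and 2 on day 3 (Lhx1 and Hhex, lower), and DESeq2 called none on days 1 and 2 and the same 2 on day 3. Relative to day 1 in KO cells, 3 regulators were called on day 2 (Eomes and Lhx1 higher, Hhex lower), 2 on day 3 (Eomes and Lhx1) and 1 on day 4 (Lhx1), where 43%, 58.3% and 66.3% of all genes were. In WT cells, Lhx1 alone was called on days 2 and 3, where 21.3% and 38.5% of all genes were. On day 4 of the WT course, 4 regulators (Eomes, Gsc, Lhx1 and Hhex) rose, where 48.5% of all genes were called and 26.9% rose. Between days 3 and 4, edgeR called no regulator in KO cells, where 0.35% of all genes passed, and none in WT cells, where 1.22% did. At an unadjusted p below 0.05 that step gave 1 regulator in KO cells (Eomes, lower) and 4 in WT cells (Eomes, Gsc, Lhx1 and Hhex, higher).

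**Figure D2:**
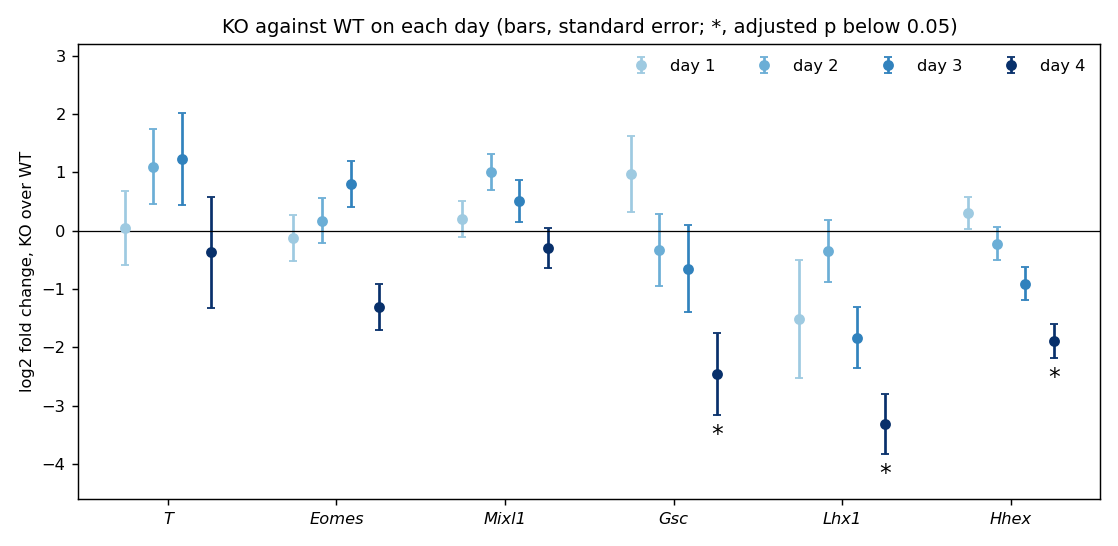
Log2 fold change of KO over WT (y axis) for the 6 genes tested (x axis) on days 1 to 4, with bars for the standard error and an asterisk for an adjusted p below 0.05. Asterisks stand at day 4 for Gsc, Lhx1 and Hhex, at -2.46, -3.31 and -1.89.

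Per kilobase of exon, the order of the genes within WT cells changed along the course. On day 1, Eomes stood first with a mean of 2.77 CPM per kilobase (range 2.72 to 2.82, n = 2) and Hhex second, while Lhx1 was sixth with 0.0765 (range 0.0394 to 0.114). On day 4, the mean levels were 10.4 for Eomes (range 7.67 to 13.2), 6.39 for Lhx1 (3.76 to 9.02), 4.11 for Hhex (3.03 to 5.19) and 1.68 CPM per kilobase for Gsc (0.734 to 2.62). Eomes and Lhx1 overlapped in range between libraries, as did Lhx1 and Hhex. Within each of both libraries the order was the same, with Eomes above Lhx1, Lhx1 above Hhex and Hhex above Gsc. In KO cells on day 4, Eomes was first with 4.19 CPM per kilobase (range 4.16 to 4.23), Hhex second with 1.10 (1.00 to 1.20) and Lhx1 next with 0.635 (0.479 to 0.790), and these 3 ranges did not overlap.

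Genes whose log2 CPM followed each regulator most closely over the 16 libraries were listed by Pearson's r, which describes libraries that share days, genotype and depth. For Lhx1 they were Nfxl1 (r = 0.976), Tgfbrap1 (0.969) and Gucd1 (0.969). For Hhex, Slc9a3r1 (0.916) and Hsp90b1, a chaperone of the endoplasmic reticulum (0.912), were among them. For Eomes they were Sh2d3c (0.938), Arhgap8 (0.902) and Mylip (0.901), for Gsc Car7 (0.894), Rpn1 (0.862) and Apom (0.851), for T Kcnh3 (0.907), Srsf4 (0.894) and the Notch ligand Dll1 (0.867), and for Mixl1 Mkx (0.834), Tle1 (0.799) and Lin28a (0.774). Among the regulators themselves, r was 0.715 between Lhx1 and Eomes, 0.659 between Gsc and Hhex, 0.555 between Lhx1 and Hhex, 0.385 between Lhx1 and Gsc, and -0.458 between Lhx1 and T.

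The neighbouring pathways were described from lists that exclude the 8 genes but share members with one another. Dkk1 is in both the anterior endoderm and the WNT list, and Lefty1 in the anterior and the nodal list. Gata4, Gata6 and Sox17 are in the anterior and the extraembryonic endoderm list. Wnt3, Wnt3a and Sp5 are in both the streak and the WNT list, and Lefty2 in the streak and the nodal list. These lists are therefore not separate evidence. The WNT list holds canonical WNT readouts together with ligands, Wnt5a, Wnt5b and Wnt11 among them. Of 20 tested genes of the anterior visceral and definitive endoderm, 9 were called lower in KO cells on day 4, where 5.05% of all genes were. None was called higher, where 1.99% of all genes were. The list's median log2 fold change was -1.33, against -0.0049 over all genes. The genes called lower are described next. They included Gata4, a zinc finger factor of primitive endoderm (-2.98 ± 0.23, adjusted p = 2.06e-06, edgeR), and Dkk1, a secreted WNT antagonist (-1.90 ± 0.21, adjusted p = 4.95e-05). Also lower, and named after their values were seen, were the homeobox genes Otx2 (-5.45 ± 0.80) and Hesx1 (-5.35 ± 0.64) and the forkhead gene Foxa2 (-1.89 ± 0.37). Otx2 had 0.601 and 0.866 CPM in KO libraries of day 4, against 45.9 and 19.8 CPM in WT libraries. The count was 6 without WT replicate 1 and 4 without KO replicate 1 of day 4.

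Streak and nascent mesoderm genes did not follow that pattern. None of 23 tested was called on day 4 by edgeR, where 7.04% of all genes were, and the list's median log2 fold change was 0.043. At an unadjusted p below 0.05 edgeR gave 5, and DESeq2 called 1 lower. On day 3, where 4.83% of all genes were called, 4 were called higher in KO and 1 lower. None of the 4 was called higher without WT replicate 2 or without KO replicate 1 of day 3. The WNT target Sp5 was among the higher ones, with a log2 fold change of 1.99 ± 0.49 (adjusted p = 0.0329), and Tbx3, a T-box gene, was the lower one, at -1.33 ± 0.26 (adjusted p = 0.0106). Of 17 genes of the WNT list, 1 was called on day 4, the lower Dkk1, where 7.04% of all genes were called. The list's median was 0.68, and 8 others had an unadjusted p below 0.05, all with higher values in KO, among them Tcf7 (0.66 ± 0.20, adjusted p = 0.0610) and Axin2 (0.87 ± 0.29, adjusted p = 0.0885), named after their values were seen. DESeq2 called 5 higher and 1 lower. Of 19 nodal and activin pathway genes, 1 was called against the same 7.04%, Lefty1, an antagonist of Nodal (-1.44 ± 0.38, adjusted p = 0.0386). Lefty1 had 56.0 and 122 CPM in KO libraries and 266 and 218 CPM in WT libraries of day 4. On day 1 the order was the other way round, with 1631 and 1707 CPM in KO libraries against 579 and 598 CPM in WT libraries.

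**Figure D3:**
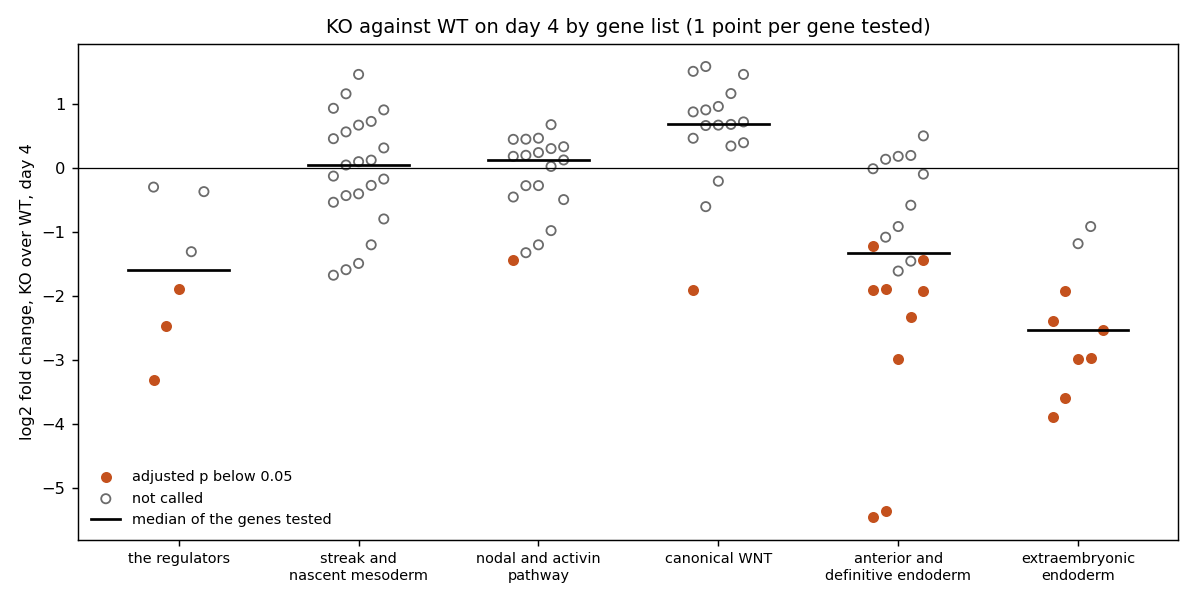
Log2 fold change of KO over WT on day 4 (y axis) for every tested gene of 6 groups (x axis), with filled points for adjusted p below 0.05, open points for genes not called and a line at the median of the genes tested. The filled points of the anterior and definitive endoderm group and of the extraembryonic endoderm group all lie below 0, and the streak and mesoderm group has none.

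Markers of the protocol's target tissue were lower in KO cells on day 4 and already on day 1. On day 4, 7 of 9 extraembryonic endoderm markers were called lower in KO cells, where 5.05% of all genes were, and their summed level was 1014 and 812 CPM in KO libraries against 5837 and 5612 CPM in WT libraries, with no marker at 0. On day 1, when neither Lhx1 nor Hhex was called different, all 9 were already called lower, where 13.6% of all genes were called in either direction, with sums of 54.1 and 34.5 CPM in KO against 212 and 236 CPM in WT libraries. That count was 5 without WT replicate 2 and 3 without KO replicate 2 of day 1. Summed mesenchyme markers were at 1253 and 894 CPM in KO and 1274 and 602 CPM in WT libraries of day 4, and none of 5 was called by edgeR or DESeq2 (1 at an unadjusted p below 0.05). Pluripotency markers summed to 81.2 and 174 CPM in KO and 202 and 367 CPM in WT libraries, and none of 6 was called by edgeR (1 at an unadjusted p below 0.05, and 1 lower by DESeq2). The extraembryonic endoderm sums of the 2 WT libraries of day 4 were close to each other, whereas Lhx1 and Cer1 were higher in replicate 1. In such bulk libraries, fewer cells of a type and less RNA per cell cannot be told apart, and the part of these markers in the results was not tested.

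At the endpoint, Eomes and Hhex were lower in KO than in WT diff_XEN. Eomes had 2.53 CPM in clone C4 and 1.51 CPM in clone 5-3, against 12.4 and 9.79 CPM in WT libraries A and B, and the groups did not overlap (log2 fold change -2.47 ± 0.37, adjusted p = 0.00544, edgeR). This held in every alternative run here. Hhex had 9.43 and 6.13 CPM in the KO clones, against 43.6 and 14.9 CPM in WT libraries A and B (-1.90 ± 0.55, adjusted p = 0.0373). The Hhex call was lost without WT library A (-0.89, adjusted p = 0.117), without clone C4 (0.104), without clone 5-3 (0.182) and with no expression filter (0.0740). In this comparison 47% of 16671 genes were called, 24.9% lower in KO, so 2 calls among the 4 regulators tested are close to the share of all genes called in either direction.

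Lhx1 at the endpoint rested on 1 WT library. It had 0.615 and 0.666 CPM in KO clones C4 and 5-3, against 5.82 CPM in WT library A and 0.246 CPM in WT library B, and the groups overlapped. The log2 fold change was -2.20 ± 1.33 (adjusted p = 0.221, edgeR), and it was called only without library B, at -3.11 (adjusted p = 0.0166). Mixl1 had 0.273 and 0.289 CPM in the KO clones and 1.22 and 0.355 CPM in WT libraries A and B, and was not called (-1.43 ± 0.76, adjusted p = 0.173). Cer1 was seen in WT library A alone, with 10 reads, and had 0 reads in library B, in both KO clones and in WT mESCs. Gsc had 2 and 6 reads in the KO clones and 4 and 0 in WT libraries A and B, and Mesp1 had 0 in all 4. The counts in the lists that follow stand beside 47% of all 16671 genes called between KO and WT diff_XEN. Of these, 3685 were higher and 4150 lower in KO. Of the 19 tested anterior and definitive endoderm genes, 10 were called lower in KO diff_XEN and 2 higher (median -1.84). Sox17, an endoderm factor, was at -4.85 ± 0.20 (adjusted p = 0.00224). The count of lower genes was 6 without WT library B. Extraembryonic endoderm markers summed to 1579 and 2316 CPM in KO clones C4 and 5-3 and 22629 and 36313 CPM in WT libraries A and B, and all 9 were called lower. Mesenchyme markers summed to 2317 and 3703 CPM in the KO clones and 504 and 257 CPM in WT libraries, and 4 of 5 were called higher in KO. Pluripotency markers summed to 49.6 and 46.6 CPM in the KO clones and 278 and 262 CPM in WT libraries, and 5 of 6 were called lower, or 3 without either KO clone. Both neural markers tested were called higher in KO. Of 19 streak and nascent mesoderm genes tested, 6 were called higher and 3 lower in KO (median 0.54). That list summed to 285 and 379 CPM in KO clones C4 and 5-3, against 906 and 1192 CPM in WT libraries A and B. Of 18 nodal and activin pathway genes, 4 were called higher and 2 lower (median 0.023). Of 15 genes of the WNT list, 8 were called higher and 1 lower in KO (median 1.87). Axin2 was at 2.56 ± 0.22 (adjusted p = 0.00246, edgeR) and Dkk1 at -5.14 ± 0.55 (adjusted p = 0.00297, edgeR). Fewer genes of the list were called higher without WT library B or without clone C4. The part of these markers in the endpoint results was not tested.

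Against WT mESCs, WT diff_XEN cells had more Lhx1 and Hhex. Lhx1 had 5.82 and 0.246 CPM in diff_XEN libraries A and B and 0.0960 and 0.0274 CPM in mESCs (log2 fold change 5.50 ± 1.49, adjusted p = 0.0172, edgeR). Hhex had 43.6 and 14.9 CPM in diff_XEN and 9.33 and 8.42 CPM in mESCs (1.72 ± 0.50, adjusted p = 0.0237). Without library A these changes were 1.93 (adjusted p = 0.168) and 0.78 (0.183) and were not called, and both calls were also lost without either mESC library (Lhx1 0.0756 and 0.105, Hhex 0.0840 and 0.102). Eomes, at 12.4 and 9.79 CPM in diff_XEN and 3.31 and 6.72 CPM in mESCs, was not called (1.15 ± 0.46, adjusted p = 0.0685), but was with DESeq2 (0.0428). Of all 17936 genes tested, 52.5% were called and 27.2% were higher in diff_XEN.

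**Figure D4:**
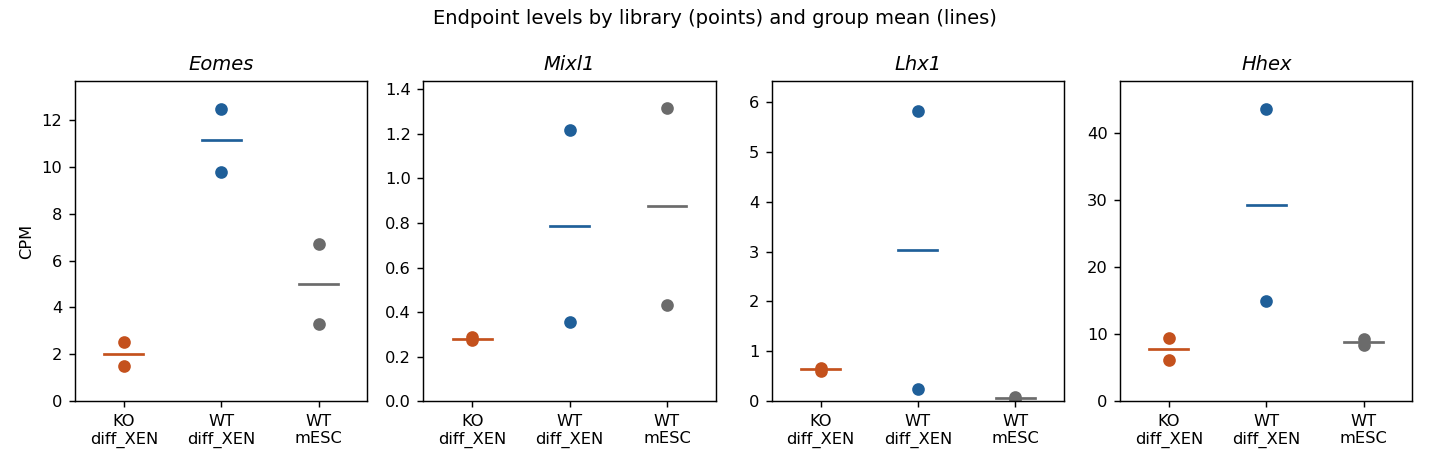
CPM (y axis, a separate linear scale per gene) of the 4 genes tested at the endpoint in KO diff_XEN, WT diff_XEN and WT mESC libraries (x axis), 1 point per library and a line at the mean of the 2 libraries. The 2 WT diff_XEN libraries lie far apart for Lhx1, at 5.82 and 0.246 CPM, and close for Eomes, at 12.4 and 9.79 CPM.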

How the data were processed

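Polyadenylated RNA was sequenced in 24 samples listed as 12 groups of 2, and 22 libraries were used. KO mESCs were not analysed here. The names of 3 count columns match no sample's labels, and these were used in no step. The authors deposited unnormalized counts of reads for each gene, made with STAR 2.5.0c, featureCounts 1.4.5-p1 and mm10, per the submitters' processing notes. The libraries were reverse-stranded per the labels, but the strand setting of the counting was not given in the sources used here. Replicates differed beyond sampling noise in every group (chi-square per degree of freedom 12.6 to 149 over genes with at least 20 counts), so none was merged.

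A model of group means was fitted in R 4.3.3 by edgeR 4.0.16 (quasi-likelihood, robust, TMM-scaled), after edgeR's own filter on low counts by group. The 16 course libraries formed 1 fit (17694 genes), the 4 diff_XEN libraries another (16671), and the 6 endpoint libraries one more (17936), and 15 comparisons were made. A call required p below 0.05 after Benjamini-Hochberg adjustment across the genes of that fit. Standard errors were derived from the log2 fold change and its F statistic. CPM were computed here from counts and TMM-scaled library sizes, and CPM per kilobase used all annotated exons of GENCODE M21 on GRCm38. Endpoint identifiers were named from that annotation (42462 of 43629 matched).

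Named were the 8 regulators, Ago2, at most 2 called genes with the smallest p per list and comparison, and the 3 genes most like each regulator by Pearson's r of log2 CPM (prior count 2), passing over predicted genes. One gene that this rule names is not reported here. The regulators and lists were chosen with earlier results of these data known. Alternatives were DESeq2 size factors, DESeq2 1.42.0 (Wald test, or a likelihood ratio test for the interaction), no expression filter, a replicate block, a fit of a day's 4 libraries and leaving out each library. The likelihood ratio test was used for counts over all genes only. Counts of list members and genotype by day of listed genes without each library were added after seeing the data. Intervals are exact 95% intervals for counting error, and reads carry no molecular identifiers. The pipeline was tested on simulated data.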

Additional observations from a re-analysis of the deposited data

Results flagged for a closer look

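The difference between KO and WT cells itself varied over days 1 to 4 for Hhex, with F = 11.5 on the genotype by day terms and an adjusted p of 0.0298 (edgeR). It was not called in 8 of the 16 fits that each left out 1 library (adjusted p up to 0.127). Both KO libraries were above both WT libraries on day 1, at 8.66 and 8.15 CPM against 6.77 and 6.81 CPM, and below both on day 4, at 6.08 and 5.07 CPM against 26.2 and 15.3 CPM. The 7 other genes of the lists with such a call were the forkhead genes Foxa2 (F = 17.2) and Foxq1 (F = 11.8), Lefty1 (F = 13.003), Gata4 (F = 12.5), Hesx1 (F = 10.9), the endocytic adaptor Dab2 (F = 9.34) and the secreted WNT inhibitor Sfrp1 (F = 9.34), with adjusted p of 0.0093 to 0.0492. In the same 16 fits, added after seeing the data, Foxa2 was called in each (adjusted p up to 0.0437). The call was lost in 6 fits for Gata4, 9 for Foxq1, 10 for Lefty1, 10 for Hesx1, 11 for Dab2 and 11 for Sfrp1. Foxa2 had 10.9 and 11.7 CPM in KO libraries of day 2 against 2.498 and 3.65 CPM in WT libraries, and 7.43 and 6.37 CPM in KO libraries of day 4 against 34.3 and 17.0 CPM in WT libraries. The causes of these differences were not tested.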

How the results depend on the processing

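Of 86 values of the regulators, 59 kept their side of the threshold under every alternative with which they were compared. DESeq2 values without an adjusted p, and DESeq2's likelihood ratio test for the interaction, were left out of that comparison. No value called in the main fit or in an alternative changed direction between them. Changes of direction in values called in neither were not counted. Of the 20 called, 11 stayed called throughout, among them Lhx1 and Hhex on day 4 (KO against WT) and Eomes in diff_XEN. Gsc on day 4 was also lost with DESeq2 size factors (adjusted p = 0.0501). Calls were gained too. Without the expression filter, 16 regulator values not called in the main fit were called and 1 call was lost. With DESeq2, 6 were gained and 0 lost. Over all genes, counts of calls moved as follows, and the cause was not tested. For KO against WT, edgeR called 2406, 288, 854 and 1246 genes on days 1 to 4. Without an expression filter the counts were 3754, 1094, 2035 and 2119. With DESeq2 they were 590 on day 2 and 1341 on day 3. In the fit of a day's 4 libraries they were 1508 on day 2 and 40 on day 3 (2 higher, 38 lower in KO, against 324 and 530). DESeq2 size factors split the day 1 calls into 1435 higher and 1097 lower, against 1219 and 1187. Genotype by day gave 410 genes, 3420 without a filter and 2179 with DESeq2. For day 4 against day 3, KO cells gave 62 genes, 1733 without a filter and 829 with DESeq2, and WT cells gave 216, 1833 and 944.

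Whether replicate numbers pair the libraries was not settled. Same-numbered deviations correlated at -0.182 to 0.391 over 28 pairs of groups, 7 above 0.1, and 6 of 8 groups correlated best with their own number. With a replicate block, counts were 1881, 249, 767 and 1112 on days 1 to 4, 301 for genotype by day and 18 for KO day 4 against day 3. Under it Gsc on day 4 was not called (adjusted p = 0.0653) and Eomes was (0.0440). No paired analysis was possible at the endpoints because the diff_XEN count columns carry clone or library names that could not be tied to the replicate numbers of the sample titles.

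Leaving out 1 library gave 45 to 4102, 44 to 105, 276 to 2635 and 453 to 803 calls for KO against WT on days 1 to 4, and 117 to 2321 for genotype by day. Against day 1, WT cells gave 1243 to 2306, 4466 to 5843 and 6112 to 7221 on days 2 to 4, and KO cells 3769 to 7239, 7906 to 9649 and 9990 to 11069. Day 4 against day 3 gave 1 to 1306 in KO and 0 to 2321 in WT cells. The diff_XEN genotypes gave 3739 to 7124, and WT diff_XEN against mESCs 6472 to 9112. Of the regulators, 2 to 3 were called lower on day 4 and 1 to 3 in diff_XEN. Anterior endoderm genes called lower numbered 4 to 9 on day 4 and 6 to 10 in diff_XEN, and extraembryonic endoderm markers 6 to 7 on day 4. T, Gsc, Mesp1 and Cer1 had few reads, at most 41 for T and 37 for Gsc in a course library, and with 2 libraries a group a single library decided several calls.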

Other observations

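Genes of the Nodal system and of the anterior endoderm differed between the 2 WT diff_XEN libraries in the same direction as Lhx1, Hhex and Cer1. This comparison of single libraries was chosen after the values were seen and has no test. Otx2 had 18.0 CPM in library A and 0.793 CPM in library B. Lefty1 had 59.4 and 1.15 CPM, Nodal itself 10.1 and 0.519 CPM, and Foxh1, a forkhead factor of the Nodal pathway, 16.3 and 3.83 CPM in libraries A and B. Foxa2, at 55.6 and 56.9 CPM, Gata4, at 514 and 637 CPM, and Sox17, at 84.3 and 94.5 CPM, did not show such a gap. Follistatin (Fst), an activin antagonist, went the other way, with 74.8 CPM in library A and 280 CPM in library B. Why the libraries differed was not tested.

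Nodal, the ligand for which the activin A of the medium stands in, lay above WT in both KO libraries on days 1 and 2 without being called (log2 fold changes 0.83 and 0.75, adjusted p = 0.181 and 0.463, edgeR). It had 202 and 223, and 250 and 250 CPM, against 114 and 125, and 127 and 170 CPM in WT libraries. The difference was larger on day 3, at 194 and 128 CPM in KO libraries against 87.4 and 25.9 CPM in WT libraries, and was not called either (1.52 ± 0.42, adjusted p = 0.0651, edgeR). On day 4 it had 66.9 and 92.9 CPM in KO libraries and 54.1 and 75.7 CPM in WT libraries. Wnt3, a ligand of the streak, had 7.81 and 3.46 CPM in KO libraries of day 4 and 3.05 and 2.93 CPM in WT libraries, which was not called (0.90, adjusted p = 0.281, edgeR). On day 3 it was called higher in KO cells (1.93, adjusted p = 0.0374), at 4.47 and 6.40 CPM in KO libraries and 2.31 and 0.615 CPM in WT libraries.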
